A study of Mus musculus with 8 samples.

Results

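Natural killer (NK)-type receptors and the adaptor chains that carry their signals were followed through RNA sequencing of CD4 T cells that had been sorted out of mouse spleens. The set holds 8 genes of the 54837 in the deposited count table, taken by symbol. It comprises the receptor genes Klrk1, Klrd1, Klrc1, Klrg1 and Klrb1c and the adaptor genes Hcst, Tyrobp and Fcer1g. All mice received tamoxifen on 5 days before the spleens were taken. GFPhi (n = 3 libraries) was sorted as positive for TIM-3, FLAG, GFP and FoxP3 from mice that combine Foxp3-eGFP-Cre-ERT2 with the FSF-TIM-3 allele. GFPLow (n = 3) was positive for TIM-3 and FLAG but negative for GFP and FoxP3, in that same genotype. WT (n = 2) was positive for GFP and FoxP3 but negative for TIM-3 and FLAG, in mice that carry Foxp3-eGFP-Cre-ERT2 alone. Thus every group carries the tamoxifen-dependent Cre in the Foxp3 gene, and all groups were treated with tamoxifen. The libraries are named by the number in their titles, which follows the letter M in both GFPhi and GFPLow. No label explains that letter or says whether a number stands for the same mouse in GFPhi and GFPLow.

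Killer lectin-like receptors are surface proteins first known from NK cells and also found on subsets of T cells. Activating receptors such as NKG2D, the product of Klrk1, have no signalling tail of their own and pair with small adaptor chains: Hcst encodes DAP10, which recruits phosphoinositide 3-kinase, while Tyrobp (DAP12) and Fcer1g (the Fc receptor gamma chain) carry tyrosine motifs that recruit Syk-family kinases. Inhibitory receptors such as the CD94 and NKG2A pair, from Klrd1 and Klrc1, and KLRG1 bind phosphatases through motifs in their own tails. In CD4 T cells NKG2D and CD94 are uncommon, whereas KLRG1 marks a differentiated subset of regulatory T (Treg) cells.

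Total counts ran from 44446215 to 55388756 per library, and 18851 genes, all 8 of the set among them, passed the filter on low counts. The gates were followed in every library. Havcr2, the gene of TIM-3, stood at 1077 to 1791 CPM (counts scaled to library size by the trimmed mean of M-values, TMM) in GFPhi, at 127 to 538 CPM in GFPLow, against 0.876 CPM in WT library 1 and 0.172 CPM in WT library 2. Foxp3 stood at 60.2 to 81.0 CPM in GFPhi, at 1.97 to 4.82 CPM in GFPLow, against 41.7 CPM in WT library 1 and 63.2 CPM in WT library 2. Cd4 was at 288 CPM or more in 7 libraries and at 109 CPM in WT library 1, and Cd3e was at 418 CPM or more in those 7 and at 190 CPM in WT library 1. That library stands apart: it has 18599 genes with a count, against 21248 to 22185 in the others, a TMM factor of 0.694, against 1.04 to 1.07, and 6.54% mitochondrial counts, against 2.35% to 2.78%. Gene counts do not separate reads of the TIM-3 transgene from those of the gene's own locus, and between GFPhi and WT the allele and the TIM-3 gate cannot be told apart. WT library 2 holds both Xist (242 CPM) and the Y-linked Ddx3y (6.16 CPM). The WT means were 121 CPM for Xist and 88.2 CPM for Ddx3y, so most Ddx3y of WT came from library 1. Xist and Ddx3y averaged 79.1 and 131 CPM in GFPhi and 61.3 and 150 CPM in GFPLow. Every group thus held reads of both, and sex was not in the model. No label states that the libraries of a group come from separate mice, so the p-values measure the spread between these libraries.

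The set does not move as a block. In GFPhi, Klrk1 and Klrb1c fell and Klrg1 rose relative to GFPLow, while Hcst was abundant in every group, and within GFPhi and GFPLow Tyrobp and Fcer1g were highest in library 3. In the edgeR quasi-likelihood test of GFPhi against GFPLow, 3 of the 8 genes passed a Benjamini-Hochberg adjusted p of 0.05, 2 lower and 1 higher in GFPhi. Of all 18851 genes, 0.626% passed as lower and 1.63% as higher, 2.26% together. The libraries of GFPhi and GFPLow did not overlap for 6 of the 8 genes, 5 lower and 1 higher in GFPhi, against 14% and 16% of all genes. The median log2 fold change of the 8 was -2.79, beside 0.01 over all genes. All fold changes are those of the group named first over the group named second, with a standard error (SE).

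**Figure D1:**
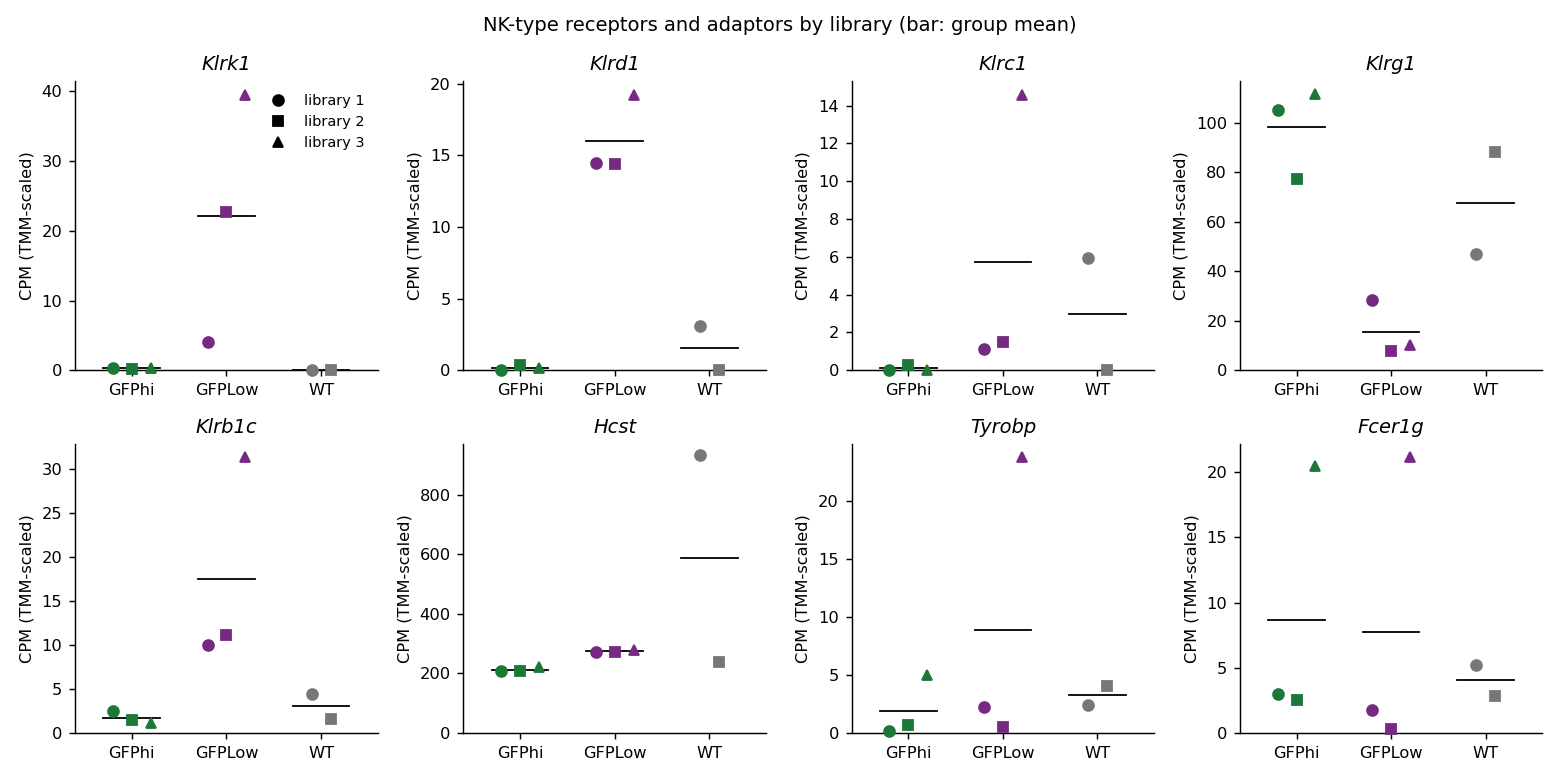
TMM-scaled CPM (vertical axes, linear from 0) of the 8 genes in each of the 8 libraries, with a bar at the group mean of 3 GFPhi, 3 GFPLow or 2 WT libraries and the symbol giving the library number. Klrk1, Klrd1 and Klrb1c are highest in the 3 GFPLow libraries, Klrg1 is lowest there, and the highest Tyrobp and Fcer1g values are those of libraries numbered 3.

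Klrk1 encodes NKG2D, an activating receptor for stress-induced relatives of MHC class I (ENSMUSG00000030149, GRCm38 chromosome 6, 129610323 to 129623864, minus strand). GFPhi libraries 1, 2 and 3 held 14, 13 and 14 Klrk1 reads, or 0.262, 0.245 and 0.259 CPM. The GFPLow libraries held 220, 1115 and 2040 reads, or 4.11, 22.7 and 39.5 CPM, and neither WT library held a read. GFPhi values were nearly equal to each other, whereas the GFPLow values spanned 9.62-fold, and the groups did not overlap. Klrk1 fell in GFPhi relative to GFPLow, the log2 ratio being -6.42 ± 0.89 (SE; adjusted p = 0.0155 by edgeR's quasi-likelihood test). The call was lost without GFPhi library 1, 2 or 3 or GFPLow library 2, with an adjusted p of up to 0.107, and the log2 fold change stayed between -6.91 and -5.70 with any library left out.

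Klrb1c encodes NKR-P1C, the activating receptor known as NK1.1 (ENSMUSG00000030325, chromosome 6, 128778485 to 128789215, minus strand). Klrb1c stood at 2.49, 1.41 and 1.13 CPM in GFPhi libraries 1 to 3, at 10.05, 11.1 and 31.4 CPM in GFPLow libraries 1 to 3, against 4.45 CPM in WT library 1 and 1.59 CPM in WT library 2. Every GFPLow library was above every other library, and GFPLow library 3 was the highest. Klrb1c fell in GFPhi relative to GFPLow (log2 fold change -3.38 ± 0.63, SE; adjusted p = 0.0353 by edgeR). This call was lost without any of the 6 GFPhi and GFPLow libraries (adjusted p up to 0.174) and was kept without WT library 1 or 2. The predicted gene Gm44511 overlaps Klrb1c on its strand, and reads of both cannot be told apart where they coincide.

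Klrk1 and Klrb1c are shown with the 250 bases before their RefSeq start (GRCm38.p6, 5′ to 3′ on the minus strand), because they are the pair of genes that fell together in GFPhi and have an entry in the promoter table used. Capitals mark matches of the RUNX letters TGTGGT or TGCGGT on either strand. The T-box letters TCACACC was also searched on both strands. The Klrk1 stretch spans chr6:129623865-129624114 and the Klrb1c stretch spans chr6:128788642-128788891. The Klrk1 stretch adjoins the gene span given above. The Klrb1c stretch lies inside the gene span given above, downstream of that span's 5′ end, because the RefSeq start differs from it.
Klrk1: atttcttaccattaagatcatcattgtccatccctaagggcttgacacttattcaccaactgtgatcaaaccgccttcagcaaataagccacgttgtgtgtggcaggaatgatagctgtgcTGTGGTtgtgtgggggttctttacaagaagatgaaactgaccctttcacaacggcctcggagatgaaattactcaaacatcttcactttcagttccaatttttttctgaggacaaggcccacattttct
Klrb1c: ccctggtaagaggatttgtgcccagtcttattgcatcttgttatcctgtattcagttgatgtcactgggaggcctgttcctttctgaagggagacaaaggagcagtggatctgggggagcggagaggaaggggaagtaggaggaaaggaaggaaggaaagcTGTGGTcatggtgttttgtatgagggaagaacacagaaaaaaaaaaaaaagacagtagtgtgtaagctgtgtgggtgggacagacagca
Each stretch holds 1 match of TGTGGT, starting 129 bases before the Klrk1 start and 89 bases before the Klrb1c start. Of the 32851 promoters in the table, 18.6% hold a RUNX match in the same window. Neither stretch holds TCACACC, which 3.33% of promoters hold. A match describes these letters and is no evidence of binding.

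Klrd1 encodes CD94, the partner chain of the NKG2 receptors (ENSMUSG00000030165, chromosome 6, 129591782 to 129598775, plus strand). GFPhi libraries 1 to 3 held 0, 20 and 8 Klrd1 reads, or 0, 0.376 and 0.148 CPM. GFPLow libraries held 773, 708 and 992 reads, or 14.4, 14.4 and 19.2 CPM, and WT libraries 1 and 2 held 95 and 0 reads, or 3.08 and 0 CPM. The 3 GFPLow libraries were close together and above every other library. The log2 fold change of GFPhi against GFPLow was -6.50 ± 1.65 (SE), with an adjusted p of 0.111 by edgeR. Klrd1 passed without WT library 1 (adjusted p = 0.00215) and without WT library 2 (0.00189).

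Klrc1 encodes NKG2A, the inhibitory partner of CD94 that recognises Qa-1 (ENSMUSG00000030167, chromosome 6, 129666015 to 129678973, minus strand). Klrc1 had 0, 15 and 0 reads in GFPhi libraries 1 to 3, 61, 74 and 752 reads in GFPLow libraries 1 to 3, and 183 and 0 reads in WT libraries 1 and 2. In CPM these are 0, 0.282 and 0 in GFPhi, 1.14, 1.503 and 14.6 in GFPLow, and 5.94 and 0 in WT. The GFPLow mean rested on library 3, and WT library 1 exceeded GFPLow libraries 1 and 2. The log2 fold change of GFPhi against GFPLow was -5.90 ± 2.27 (SE; adjusted p = 0.340 by edgeR). Per kilobase of exon, Klrd1 was 19.6 and 14.8 times as abundant as Klrc1 in GFPLow libraries 1 and 2 and 2.04 times in library 3. Klrc1, Klrc2 and Klrc3 are close relatives, so their counts are uncertain where reads fit more than 1 of them. Klrc2 (NKG2C) had no read in any GFPhi library, 5, 69 and 198 reads in GFPLow libraries 1 to 3, and 2 and 0 reads in WT libraries.

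Klrg1 encodes an inhibitory receptor for cadherins (ENSMUSG00000030114, chromosome 6, 122270596 to 122282882, minus strand) and ran opposite to the other receptors. Its level was 105, 77.3 and 112 CPM in GFPhi libraries 1 to 3, 28.5, 7.90 and 10.3 CPM in GFPLow libraries 1 to 3, and 47.0 and 88.2 CPM in WT libraries 1 and 2. Both FoxP3+ groups lay above all 3 GFPLow libraries. Klrg1 rose in GFPhi relative to GFPLow, the log2 ratio being 2.65 ± 0.51 (SE; adjusted p = 0.0384 by edgeR). The call was lost without any of the 3 GFPhi libraries or without GFPLow library 2 or 3 (adjusted p up to 0.162), and the log2 fold change ran from 2.34 to 3.42 with any library left out. Without both libraries numbered 3, edgeR called none of the 8 genes and none of all genes tested in GFPhi against GFPLow. With WT library 1 left out too, it called Klrk1, Klrd1, Klrb1c and Hcst as lower, with 1419 genes called in all.

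Hcst encodes DAP10, the adaptor that NKG2D uses in mouse and human T cells (ENSMUSG00000064109, chromosome 7, 30417712 to 30419854, minus strand). Its level was 208, 207 and 222 CPM in GFPhi, 272, 272 and 279 CPM in GFPLow, and 935 and 238 CPM in WT libraries 1 and 2. Within GFPhi and GFPLow the libraries differed by no more than 1.07-fold, and all GFPLow values lay above all GFPhi values. The log2 fold change of GFPhi against GFPLow was -0.37 ± 0.41 (SE; adjusted p = 0.975 by edgeR). In fits without WT library 1 or 2 Hcst passed as lower in GFPhi (adjusted p = 0.00425 and 0.00396) at a log2 fold change of -0.38 and -0.37. WT library 1, the library that stands apart, held 3.93 times the Hcst level of WT library 2.

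Tyrobp encodes DAP12 and lies 126 bases from Hcst in the opposite orientation (ENSMUSG00000030579, chromosome 7, 30413760 to 30417585, plus strand). Tyrobp stood at 0.188, 0.640 and 4.97 CPM in GFPhi libraries 1 to 3, at 2.22, 0.528 and 23.8 CPM in GFPLow libraries 1 to 3, against 2.43 CPM in WT library 1 and 4.03 CPM in WT library 2. The groups overlapped, and library 3 was the highest in both GFPhi and GFPLow. GFPhi against GFPLow gave a log2 difference of -2.19 ± 1.47 (SE; adjusted p = 0.751 by edgeR), and 0.49 without GFPLow library 3.

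Fcer1g encodes the gamma chain of Fc receptors (ENSMUSG00000058715, chromosome 1, 171229572 to 171234365, minus strand). Fcer1g stood at 2.9997, 2.52 and 20.5 CPM in GFPhi libraries 1 to 3, at 1.77, 0.284 and 21.1 CPM in GFPLow libraries 1 to 3, against 5.22 CPM in WT library 1 and 2.86 CPM in WT library 2. Both libraries numbered 3 were far above the other 6. The log2 fold change of GFPhi against GFPLow was 0.16 ± 1.34 (SE; adjusted p = 0.99993 by edgeR), -1.48 without GFPhi library 3 and 3.07 without GFPLow library 3.

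Per kilobase of exon, the unit used here to set levels of different genes side by side, Hcst was the most abundant adaptor in all 8 libraries. Exon length joins the exons of all annotated transcripts of a gene, 7183 bases for Klrk1 and 722 bases for Hcst. Ratios between genes therefore depend on the annotation. Hcst was at 287 to 307 CPM per kilobase in GFPhi, at 376 to 386 in GFPLow, and at 1296 and 330 in WT. The Hcst level was 41.3 to 1023 times that of Tyrobp in GFPhi, 10.8 to 475 times in GFPLow, and 355 and 54.5 times in WT. Relative to Klrk1, Hcst was 7868 to 8509 times as abundant in GFPhi, where a library held 13 or 14 Klrk1 reads. It was 660, 119 and 70.2 times as abundant in GFPLow libraries 1 to 3. Among the receptors, Klrg1 had the highest level per kilobase in GFPhi (69.3 ± 12.9, SD, n = 3), while in GFPLow Klrd1 (12.5 ± 2.17) and Klrg1 (11.01 ± 7.95) did not differ beyond their spread. In WT Klrg1 was again the highest receptor, at 33.2 and 62.3 CPM per kilobase.

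**Figure D2:**
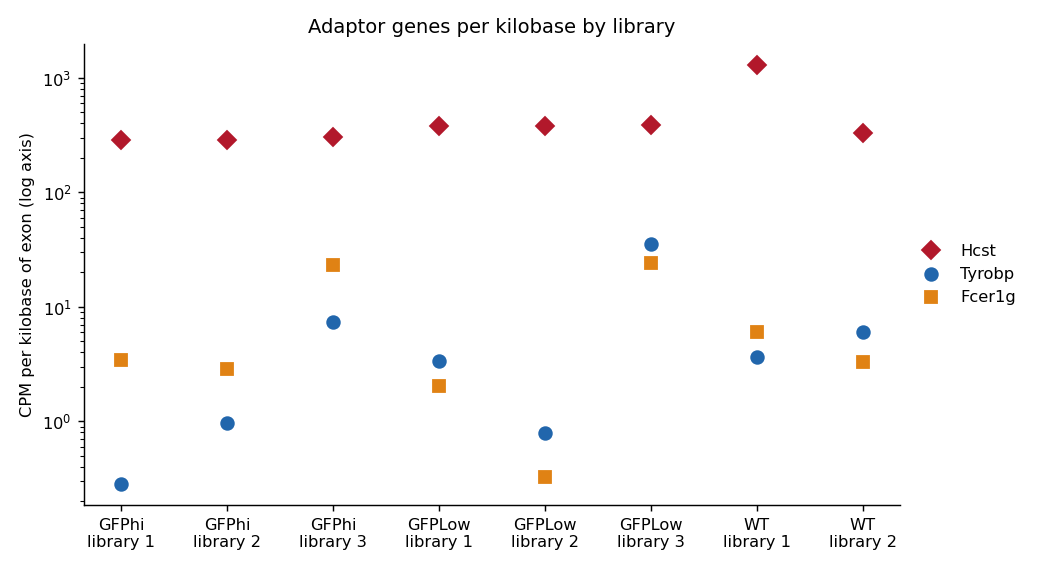
TMM-scaled CPM per kilobase of exon (vertical axis, logarithmic) of the 3 adaptor genes in each of the 8 libraries (horizontal axis). Hcst lies between 287 and 1296 in all libraries, whereas Tyrobp (0.281 to 35.7) and Fcer1g (0.325 to 24.2) are highest in libraries numbered 3.

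Markers of other cells were read beside these values, as summed CPM per list. The 9 NK cell markers (Ncr1, Klra4, Klra7, Klra8, Klra9, Klre1, Klri2, Gzma and Eomes) summed to 1.69 to 6.27 CPM in GFPhi, to 17.0, 8.66 and 68.7 CPM in GFPLow libraries 1 to 3, against 11.3 CPM in WT library 1 and 0.259 CPM in WT library 2. In GFPLow library 3 all 9 had a read, with Ncr1, the NK receptor NKp46, at 7.81 CPM. In GFPLow libraries 1 and 2, 5 and 4 of the 9 had a read, and Ncr1, Klra4, Klra7 and Klra8 were at 0 in both. Klrk1, Klrd1 and Klrb1c were above all GFPhi and WT libraries in those 2 GFPLow libraries as well. Ncr1 was also at 0 in GFPhi libraries 1 and 3 and WT library 2, with 0.885 CPM in GFPhi library 2 and 1.33 CPM in WT library 1. Eomes and Gzma are expressed by T cells too, and T cells can carry Ly49 (Klra) receptors.

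The 8 myeloid markers (Lyz2, Csf1r, Cd14, Adgre1, Fcgr1, Cd68, Spi1 and Itgam) summed to 2.40, 1.60 and 25.6 CPM in GFPhi libraries 1 to 3, to 22.4, 2.78 and 236 CPM in GFPLow libraries 1 to 3, against 9.25 CPM in WT library 1 and 32.1 CPM in WT library 2. All 8 had a read in GFPLow library 3, with Lyz2 (lysozyme) at 197 CPM and Csf1r at 11.1 CPM, and 6 had a read in GFPhi library 3, with Csf1r at 5.74 CPM. Csf1r was at 0 in GFPhi library 2, GFPLow library 2 and WT library 1, and at 0.0187, 0.897 and 1.02 CPM in GFPhi library 1, GFPLow library 1 and WT library 2. The myeloid sum was thus highest in library 3 within both GFPhi and GFPLow, as were Tyrobp and Fcer1g. The NK sum was highest in GFPLow library 3, as were Klrc1, Klrk1 and Klrb1c, but lowest in library 3 within GFPhi. It was also higher in every GFPLow library than in every GFPhi library, an order that rests on Gzma and Eomes. Apart from these, GFPLow library 1 held Klra9, Klre1 and Klri2 at 0.448, 0.0187 and 0.131 CPM. GFPLow library 2 held Klra9 and Klre1 at 0.0203 and 0.670 CPM. In GFPhi library 2, Ncr1, Klra7 and Klra9 stood at 0.885, 2.86 and 0.151 CPM. The sum with Gzma and Eomes moved between these groups with the falls of Klrk1 and Klrb1c and with the lower Klrd1 values in GFPhi. In WT library 1 the NK sum (11.3 CPM) exceeded that of GFPLow library 2 (8.66 CPM). These sums hold different genes. In WT library 1, Gzma was at 0 and Klra7, Klra9 and Klre1 stood at 2.99, 3.41 and 3.08 CPM. In GFPLow library 2, Klra7 was at 0 and Klra9 and Klre1 stood at 0.0203 and 0.670 CPM. WT library 1, the library that stands apart, held no Klrk1 read, beside 22.7 CPM in GFPLow library 2. Klrd1 and Klrb1c in WT library 1 lay above every GFPhi library, as the NK sum did. The part of either list in these values was not tested. In bulk libraries, fewer cells of a type and less RNA per cell cannot be told apart.

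Markers of other T cell kinds were read in the same way. The 4 NKT cell markers (Zbtb16, Trav11, Trav11d and Klrb1a) summed to 0.0753 to 0.852 CPM in GFPhi, to 1.40 to 5.11 CPM in GFPLow, against 0.0649 CPM in WT library 1 and 0.0345 CPM in WT library 2. Zbtb16, the transcription factor of innate-like T cells, was at 0.675, 0 and 0.834 CPM in GFPhi libraries 1 to 3, at 2.19, 1.22 and 3.89 CPM in GFPLow libraries 1 to 3, and at 0 in both WT libraries. Between GFPhi and GFPLow this list moved with Klrk1, Klrd1 and Klrb1c. In WT library 1, the library that stands apart, its sum of 0.0649 CPM came from 1 of the 4 markers. That sum lay below every GFPhi library, and sums this low rest on few reads. Klrd1 (3.08 CPM) and Klrb1c (4.45 CPM) in WT library 1 lay above every GFPhi library. From GFPLow library 1 to 2 the sum went from 2.39 to 1.40 CPM and Klrk1 from 4.11 to 22.7 CPM. The part of this list in the 3 genes was not tested. The 2 CD8 markers summed to 19.7 to 23.7 CPM in GFPhi, 21.5 to 32.8 CPM in GFPLow, and 37.7 and 16.2 CPM in WT, mostly from Cd8b1. Cd8a was at 0.29997, 0.151 and 0.778 CPM in GFPhi, against 0.616, 0.813 and 4.05 CPM in GFPLow. Gamma delta T cell markers summed to 27.3 to 51.0 CPM in GFPhi, 31.6 to 61.2 CPM in GFPLow, and 60.4 and 37.2 CPM in WT. The 5 mast cell and basophil markers, of cells that also use Fcer1g, summed to 1.58 to 2.04 CPM in GFPhi, 0.953 to 1.93 CPM in GFPLow, and 13.6 CPM in WT library 1 and 2.33 CPM in WT library 2. Nearly all of this was Cpa3, while Ms4a2, Fcer1a and Mcpt8 were at 0 in all 8 libraries. Platelet markers summed to 40.8 CPM in WT library 1 and to 5.30 CPM or less elsewhere.

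**Figure D3:**
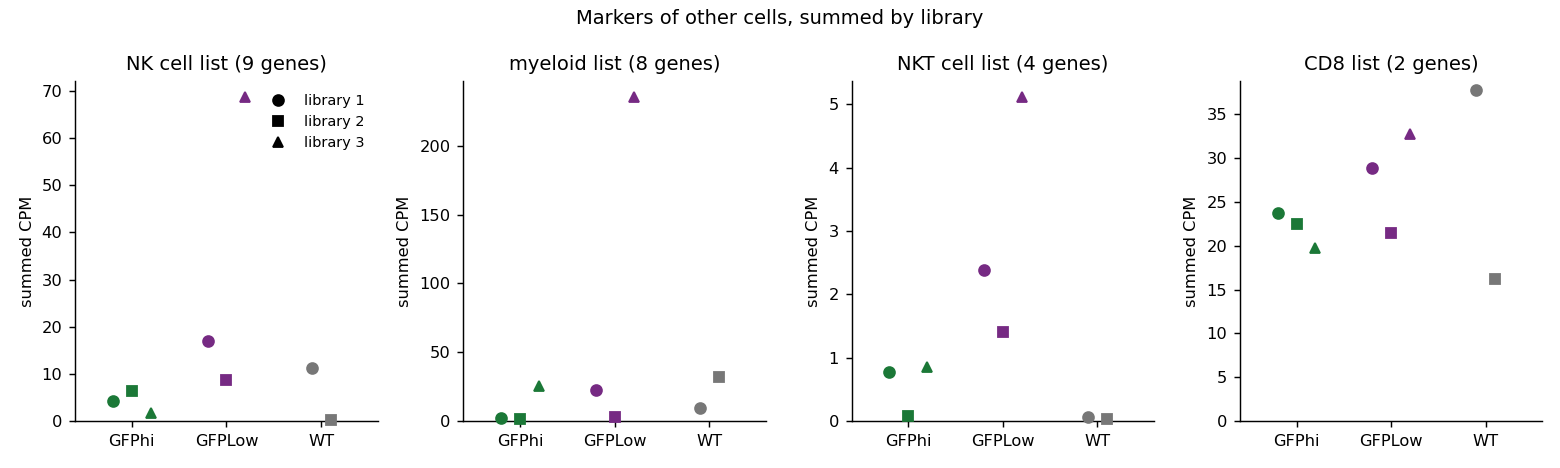
Summed CPM (vertical axes, linear from 0) of 4 lists of markers of other cells in each library, with the symbol giving the library number. GFPLow library 3 is the highest library for the NK cell list (68.7 CPM), the myeloid list (236 CPM) and the NKT cell list (5.11 CPM).

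GFPhi against WT sets FoxP3+ cells with TIM-3 beside FoxP3+ cells without it. It shares the WT libraries with the comparison that follows. None of the 8 genes was called, and edgeR called none of the 18851 genes (0%). At an unadjusted p below 0.05 there were 2588 genes, 2 of the 8 among them. DESeq2 called 61 genes and none of the 8, and voom called 0 genes. Against a floor of 3 counts over both WT libraries, Klrk1 was at least 7.57-fold higher in GFPhi (adjusted p = 0.348). Of the 975 genes tested with a GFPhi mean of 0.2 to 0.3 CPM, like Klrk1, 44.4% had no count in WT library 1, 11.9% had none in WT library 2 and 9.03% had none in either. Klrg1 differed by 0.54 ± 0.54 (SE; log2 fold change, adjusted p = 0.609) and Hcst by -1.47 ± 0.46 (adjusted p = 0.348). Hcst was at 208 to 222 CPM in GFPhi, against 238 CPM in WT library 2, and without WT library 1 its log2 fold change was -0.17. With WT library 1, the library that stands apart, as the only WT library, 3 of the 8 were called, Klrd1, Klrc1 and Hcst as lower in GFPhi, among 8234 genes in all. That fit takes its spread from GFPhi and GFPLow and assumes that the lone WT library varies like them, so these calls compare GFPhi with 1 library. For 2 of the 8 the groups had no overlap, with Klrk1 higher and Hcst lower in GFPhi, against 15.6% and 12.6% of all genes.

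GFPLow against WT gave 1 call among the 8, Klrk1 as higher, beside 3.3% of all genes called, 1.08% higher and 2.23% lower. Klrk1 was at 22.1 ± 17.7 CPM (SD, n = 3) in GFPLow with no count in WT, at least 654-fold higher by the floor of 3 counts (adjusted p = 0.0120 by edgeR). It was called in all 8 fits with 1 library left out, with an adjusted p of up to 0.0435, and lost when both libraries numbered 3 were left out (0.0939), when only the GFPLow and WT libraries were fitted (0.114) and by voom (0.99988). The Klrk1 call was also lost when library number was fitted as a block over all libraries. Klrb1c (2.55 ± 0.72, SE; adjusted p = 0.102) and Klrd1 (3.41 ± 1.66; adjusted p = 0.237) were above both WT libraries in all 3 GFPLow libraries, and Klrg1 (-2.12 ± 0.53; adjusted p = 0.0779) was below both. Without WT library 1, Klrd1 (adjusted p = 0.0138) and Klrg1 (0.0463) passed as well, against a single WT library, the one with both Xist and Y-linked reads, with the spread again taken from GFPhi and GFPLow. Hcst stood at -1.10 ± 0.46 (adjusted p = 0.185) with all libraries and at 0.21 without WT library 1. For 4 of the 8, 3 higher and 1 lower in GFPLow, GFPLow and WT had no overlap, against 21.1% and 19.2% of all genes. The log2 fold changes of Klrc1 (0.96 ± 2.04), Tyrobp (1.45 ± 1.65) and Fcer1g (0.94 ± 1.56) were within 1 SE of 0.

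**Figure D4:**
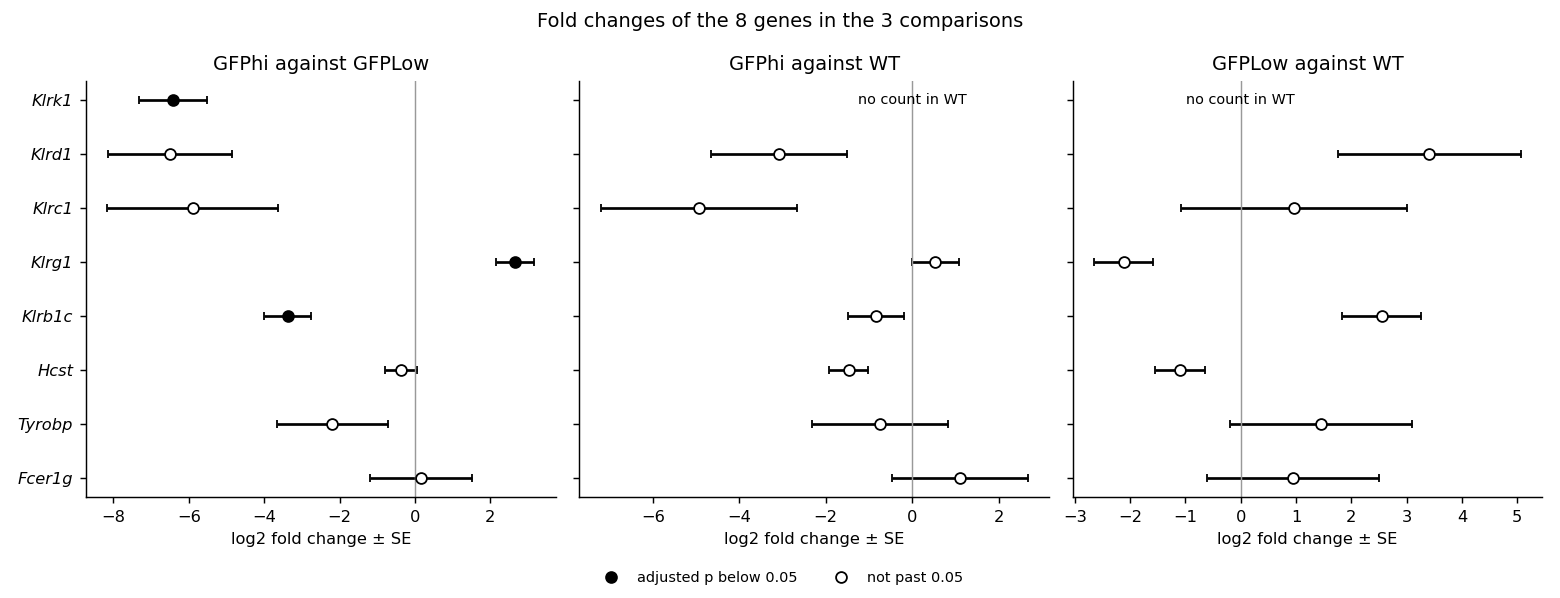
Log2 fold changes with SE (horizontal axes) of the 8 genes in the 3 comparisons, from 1 edgeR fit over 8 libraries, with filled points for an adjusted p below 0.05. In GFPhi against GFPLow the filled points are Klrk1 (-6.42), Klrg1 (2.65) and Klrb1c (-3.38), and no fitted value is drawn for Klrk1 against WT, where Klrk1 had no count.

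Other genes of these pathways were read from a list of 82, of which 77 were in the table and 59 were tested. In GFPhi against GFPLow, 1 was called higher and 1 lower, and the list's median log2 fold change was 0.04, beside 0.01 over all genes. In GFPhi against WT none was called, and in GFPLow against WT 2 were called higher and 1 lower. These are 2 and 3 of 59 genes, beside the 2.26% and 3.3% of all genes given above. The genes called belong to the 22 signalling genes below the adaptors. Vav2, an exchange factor for small GTPases, was at 17.4, 12.01 and 7.78 CPM in GFPhi, 3.21, 3.03 and 1.76 CPM in GFPLow, and 15.3 and 16.3 CPM in WT. It rose in GFPhi relative to GFPLow (2.22 ± 0.38, SE; adjusted p = 0.0248 by edgeR) and fell in GFPLow relative to WT (-2.56 ± 0.40; adjusted p = 0.0160). Pik3cd, the catalytic subunit of a phosphoinositide 3-kinase of leukocytes, rose in GFPLow relative to WT (0.99 ± 0.18; adjusted p = 0.0240), at 290 to 311 CPM against 140 and 164 CPM. The kinase gene Zap70 was at 223 CPM on average in GFPhi, against 213 CPM in GFPLow. Its relative Syk was at 0.0937, 0.508 and 2.20 CPM in GFPhi libraries 1 to 3, the highest being library 3, where myeloid markers were high, and at 0.224, 0.0203 and 0.116 CPM in GFPLow.

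None of 32 other receptor genes (31 in the table, 20 tested) was called in any of the 3 comparisons. Of the 17 ligand genes 13 were in the table and 7 were tested, with 0 called. The 4 ITAM chains of the T cell receptor and the 7 phosphatase and SAP family genes (6 tested) also gave 0 calls. Crtam, a receptor of activated cytotoxic cells, was at 1.31, 2.88 and 1.52 CPM in GFPhi, 8.65, 10.7 and 8.25 CPM in GFPLow, and 0.389 and 0 CPM in WT. It had an adjusted p of 0.319 in GFPhi against GFPLow and of 0.0513 in GFPLow against WT, and was chosen after its values were seen.

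All 5 receptor genes lie on chromosome 6, and 4 of them in the NK gene complex, taken here as the 2.64 Mb from Klrb1a to Klra2 (128609227 to 131247362). Klrd1 and Klrc1 bracket Klrk1 within 87.2 kb. The complex holds 43 protein-coding genes in GENCODE vM21, of which 9 had no read in any library and 17 averaged 1 CPM or more in a group. A gene could reach that level in any group, as Klrk1 and Klrc2 did in GFPLow alone. Klrk1, Klrd1, Klrc1 and Klrb1c also belong to the set of 8, so the shares that follow are no test of the complex. For 8 of the 17 genes (Klrb1c, Klre1, Klrd1, Klrk1, Klrc2, Klrc1, Klra9 and Klra1), the GFPLow mean was over 5 times the GFPhi mean. It was so for 1.42% of the 11118 protein-coding genes that averaged 1 CPM or more in a group. Those genes were not matched to the 17 in level, and large ratios are easier to reach at low counts. Part of these means rests on GFPLow library 3, the library with the highest NK marker sum: Klra9 was at 0.448, 0.0203 and 5.04 CPM in GFPLow libraries 1 to 3, Klre1 at 0.0187, 0.670 and 4.96 CPM, and Klra1 at 0, 0.447 and 2.01 CPM. Without both libraries numbered 3, among the same 17 genes, the ratio was over 5 for Klrb1c, Klre1, Klrd1, Klrk1, Klrc2, Klrc1, Klra1 and Clec1b. It was over 5 for 1.69% of the same 11118 genes. Some of these ratios rest on few reads. Klra1, Klre1 and Klrc2 had no read in any GFPhi library. In GFPLow libraries 1 and 2, Klra1 had 0 and 22 reads and Klre1 had 1 and 33 reads. Their neighbours in the complex, Cd69, an activation marker (321 CPM in GFPhi, 267 CPM in GFPLow), and Clec2i (121 CPM in GFPhi, 100.4 CPM in GFPLow), were abundant in both groups. In GFPhi against GFPLow, Klrk1 and Klrb1c were the only genes called among the 27 genes of the complex that were tested.

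**Figure D5:**
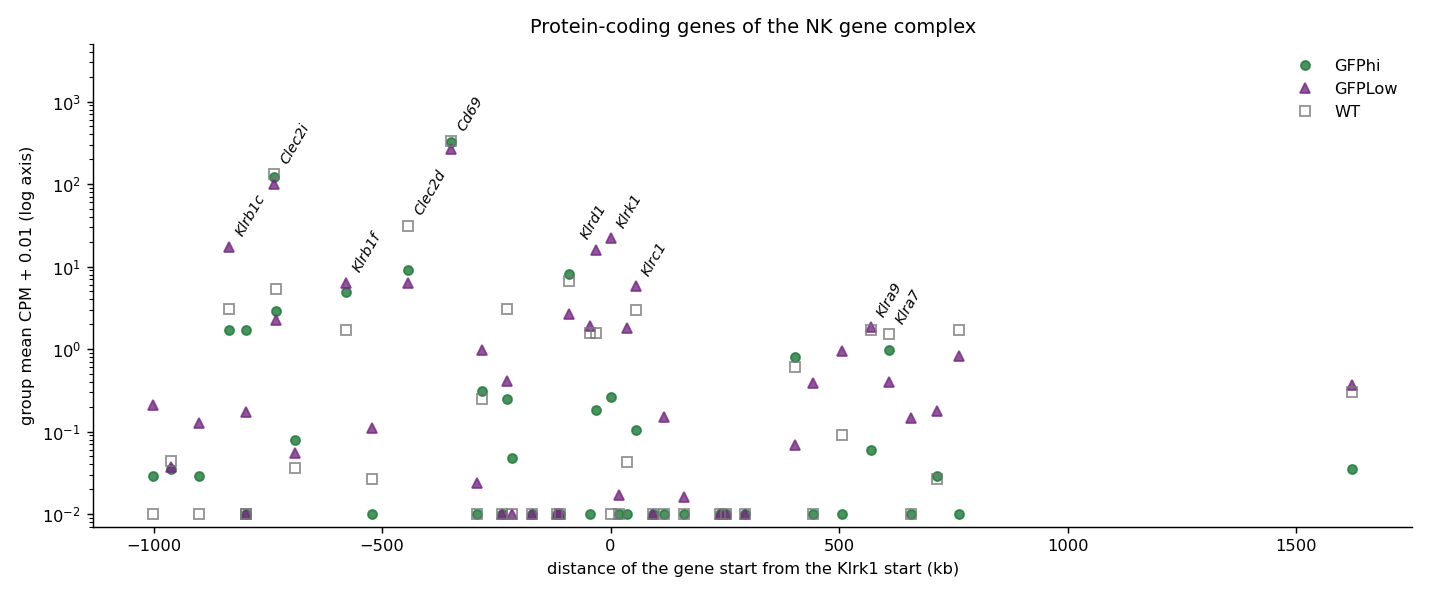
Group mean CPM plus 0.01 (vertical axis, logarithmic) of the 43 protein-coding genes of the NK gene complex against the distance of their start from the Klrk1 start in kb. Klrb1c, Klrd1, Klrk1 and Klrc1 are higher in GFPLow than in GFPhi, while Clec2i and Cd69 lie near each other in the 3 groups.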

How the data were processed

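The authors deposited raw counts for each Ensembl gene, not normalized. Per the submitters' processing notes, build GRCm38 and the tools HTSeq 0.11.2, HISAT2 2.1.0, SAMtools 1.9, R 4.0 and edgeR were used. What each did, the annotation and the strand setting are not given there. SMART-Seq HT and Nextera XT kits were used, per the labels' protocols. Reads carry no molecular identifiers, so floors cover counting error only. Of 54837 identifiers, 54808 matched GENCODE vM21, which gave symbols, positions and exon lengths.

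Genes were kept by filterByExpr with 3 groups, scaled by TMM and fitted in 1 edgeR 4.0.16 quasi-likelihood model of 8 libraries with robust estimation (5 residual degrees of freedom). Tests were two-sided, adjusted by Benjamini-Hochberg over 18851 genes with a threshold of 0.05. The SE is the absolute log2 fold change over the square root of F. Alternatives used edgeR, DESeq2 1.42.0 and limma 3.58.1 in R 4.3.3, and figures Python 3.11.15 and matplotlib 3.10.9. The model was tested on simulated data.

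The 8 genes and all lists were chosen with earlier results of these data known. Named beside them are pathway genes called in any comparison (up to 4 per sublist) and, for each of the 8, the 3 protein-coding genes with the highest correlation of log2 CPM (prior count 2). The labels do not explain the shared numbers of GFPhi and GFPLow libraries, and the deviations of same-numbered libraries correlated at 0.07, 0.07 and 0.15, so no block was used. Of the 8 genes 5 had a promoter in the RefSeq table used. Some genes that these rules name are not reported here.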

Additional observations from a re-analysis of the deposited data

How the results depend on the processing

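In GFPhi against GFPLow, 3 of the 8 genes were called, and 0 to 5 with each library left out, with 0 under the replicate block over all libraries and 5 with only the 6 libraries compared, with or without the replicate block. Without both libraries numbered 3, a choice made after seeing the data, as was the next, 0 were called. All genes called numbered 426, with 105 to 1984 when a library was left out, 1375 by DESeq2, 2271 by voom, 182 and 1752 with the replicate block over all and over the compared libraries, 2105 over the compared libraries without it, 0 without both libraries numbered 3, and 1419 without these and WT library 1. In GFPhi against WT, 0 of the 8 were called (0 to 3 with a library left out), and 0 of all genes (0 to 8234), with 1 without the filter, 61 by DESeq2, 22 with the replicate block over the compared libraries and 6 without the libraries numbered 3 and WT library 1. In GFPLow against WT, 1 of the 8 was called, Klrk1, and Klrk1 stayed called with any GFPhi or GFPLow library left out. The filter of 5 CPM in 2 libraries gave 2 calls, DESeq2 gave 3 and voom 0. With the replicate block over all libraries 0 were called (Klrk1 adjusted p = 0.0521 by edgeR). Over the compared libraries without a block 0 were called, as without both libraries numbered 3. Klrk1 stayed called with the block over the compared libraries. All genes called there were 623 (213 to 9002), with 3216 by DESeq2, 72 by voom, 158 and 217 with the replicate block over all and over the compared libraries, 33 over the compared libraries, 13 without both libraries numbered 3, and 961 without these and WT library 1. Same-numbered GFPhi and GFPLow libraries correlated best with each other in each case, a hint from the data and not the design. The replicate block also joined WT libraries 1 and 2 to the same-numbered GFPhi and GFPLow libraries. WT mice are of another genotype and cannot be the same mice. Block fits that include WT libraries are thus no check of a pairing.

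Log2 fold changes kept their direction under all alternatives that gave a value for Klrk1 and Klrg1 in the 3 comparisons and for Klrd1, Klrc1, Klrb1c and Hcst in GFPhi against GFPLow. For Klrk1 against WT that direction was set in advance, since neither WT library held a Klrk1 read, and it is no sign of stability. Klrc1 had no value under the filter of 5 CPM. Tyrobp in GFPLow against WT was -0.30 by voom, -1.07 and -1.52 with the replicate block over all and over the compared libraries, -1.23 without both libraries numbered 3, and -1.55 without these and WT library 1. Fcer1g there was -0.78, -1.85, -2.41, -1.97 and -1.47 in the same order. Fcer1g in GFPhi against WT was -0.71 and -0.50 with the replicate block, -0.55 without both libraries numbered 3 and -0.05 without these and WT library 1. Klrc1 in GFPLow against WT was -0.48 with the replicate block over all libraries and -1.16 without both libraries numbered 3. In GFPhi against WT, Klrd1 was 0.89 by voom and 6.35 without the libraries numbered 3 and WT library 1, where Klrc1 was 5.94 and Klrb1c 0.30, and Hcst in GFPLow against WT was 0.19. Klrd1 and Klrc1 have no count in WT library 2, so these last fitted values are no bounds. With a library left out, log2 fold changes that turned ran from -4.41 to 0.49 (Tyrobp) and -1.48 to 3.07 (Fcer1g) in GFPhi against GFPLow. In GFPhi against WT they ran from -4.30 to 6.23 (Klrd1), -10.21 to 5.35 (Klrc1), -1.38 to 0.08 (Klrb1c) and -0.55 to 1.60 (Fcer1g). In GFPLow against WT they ran from -1.16 to 11.26 (Klrc1), -1.75 to 0.21 (Hcst), -1.23 to 2.003 (Tyrobp) and -1.97 to 1.51 (Fcer1g). The causes were not tested. With 2 WT libraries that differ from each other, comparisons with WT are limited.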

Other observations

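Over the 8 libraries, which share groups and depth, the genes whose log2 CPM ran most like that of each receptor were found among 10325 protein-coding genes with a mean log2 CPM above 0. For Klrk1 they included Cxcr3, a chemokine receptor (Pearson r = 0.97), and Ifitm10 (0.97). Ifitm10 was at 1.56, 2.18 and 1.37 CPM in GFPhi, 11.2, 10.7 and 15.4 CPM in GFPLow, and 0.649 and 0.448 CPM in WT. For Klrd1 they were Stk26 (0.98), Elovl7, a fatty acid elongase (0.98), and Ntrk3, a neurotrophin receptor (0.98). Elovl7 was at 0.356, 0.903 and 0.371 CPM in GFPhi, 7.94, 8.05 and 8.48 CPM in GFPLow, and 2.21 and 0.121 CPM in WT. For Klrb1c they were B4galt1 (0.98), the perforin gene Prf1 (0.96) and Tesc (0.95), and Prf1 was at 1.70 to 3.21 CPM in GFPhi, 22.6 to 27.4 CPM in GFPLow, and 5.87 and 1.72 CPM in WT. For Klrg1 they were Pla2g4f, a phospholipase (0.99), Glt28d2 (0.98) and Eno3, a muscle enolase (0.98). Pla2g4f was at 11.1, 9.66 and 9.26 CPM in GFPhi, 0.803, 0 and 0 CPM in GFPLow, and 1.56 and 8.14 CPM in WT. Klrc1 ran most like Itpr1 (0.95), Acat1 (0.95) and Btbd11 (0.95).

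For Hcst the nearest were Serf2 (0.998), Mrpl57 (0.997) and Pop5 (0.996), all highest in WT library 1, as Hcst was. For Tyrobp they were Slc40a1, the iron exporter ferroportin (0.94), 2310033P09Rik (0.93) and Ccdc14 (0.93). Slc40a1 was at 0, 0.0188 and 7.41 CPM in GFPhi libraries 1 to 3, 2.19, 0.305 and 19.4 CPM in GFPLow libraries 1 to 3, and 2.14 and 7.74 CPM in WT. For Fcer1g they were Fastkd5 (0.95), Usp18, an interferon-induced protease (0.94), and Dnajc17 (0.89). Usp18 was at 126, 131 and 228 CPM in GFPhi libraries 1 to 3, 121, 97.4 and 199 CPM in GFPLow libraries 1 to 3, and 133 and 147 CPM in WT.

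The 11 Ly49 (Klra) genes of the complex, near-identical copies whose counts may be split wrongly, summed to 0, 5.42 and 0.0741 CPM in GFPhi libraries 1 to 3, to 0.448, 1.14 and 13.6 CPM in GFPLow libraries 1 to 3, against 11.1 CPM in WT library 1 and 0.586 CPM in WT library 2. In GFPLow library 3, 9 of the 11 had a read, against 1 in GFPLow library 1 and 4 in GFPLow library 2. Klrb1b, an inhibitory relative of Klrb1c, was at 1.78, 0.659 and 2.58 CPM in GFPhi, at 0, 0 and 0.484 CPM in GFPLow, and at 0 in WT (adjusted p = 0.553 by edgeR in GFPhi against GFPLow).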
